A study of Mus musculus with 2 samples.

Results

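The cells described here are 127 of the 2400 barcodes kept from a single-cell RNA library of Car1-GFP mouse bone marrow, 5.29% of them (95% exact binomial interval 4.43 to 6.26%). They were chosen by 2 readings of each barcode: under 10% of its unique molecular identifiers (UMIs, counted RNA molecules) came from mitochondrial genes, and the summed UMIs of Hba-a1, Hba-a2, Hbb-bs and Hbb-bt, the adult globin genes, made up at least 1% and under 2% of its total. They are called band cells below, and they were set against the 2022 barcodes of the same library under 1% (below-band cells) and the 251 at 2% or more (above-band cells). The library came from CD45+ bone marrow cells that expressed GFP under Car1, a cytosolic carbonic anhydrase gene, sorted from 3 untreated reporter mice on the C57BL/6 background and pooled. The other library of the series came from CD45+ CD3- Ly6G- marrow cells of 3 pooled untreated C57BL/6 mice. Over both libraries the series holds 8980 barcodes. Neither the design of the reporter allele nor the age of the mice is given in the labels. With 1 library per gate there is no spread between mice, so no test was made anywhere; every interval is a 95% interval that covers counting error only.

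Erythroid progenitors divide while they take up iron, build heme through a chain of enzymes shared between mitochondria and cytosol, and load it into alpha and beta globin. The transcription factors Gata1 and Klf1 drive this programme, while Gata2, Myb and the receptor Kit belong to the earlier progenitor state. Alas2, the erythroid form of the enzyme that begins heme synthesis, and Slc4a1, the band 3 anion exchanger of the red cell membrane, belong to the later part of it.

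The globin genes that define the cells lie in a pair of clusters, and their promoters are shown with that of Alas2 because the globins define the cells and Alas2 had the lowest ratio to above-band cells among named genes with a mean of 50 CPM or more outside the globins. Each line gives the 150 bases before the RefSeq start site, 5′ to 3′ on the gene's own strand, from GRCm38.p6: Hba-a1 at chr11:32283522-32283671 (plus strand), Hba-a2 at chr11:32296342-32296491 (plus), Hbb-bs at chr7:103827929-103828078 (minus), Hbb-bt at chr7:103813924-103814073 (minus) and Alas2 at chrX:150547267-150547416 (plus).
Hba-a1: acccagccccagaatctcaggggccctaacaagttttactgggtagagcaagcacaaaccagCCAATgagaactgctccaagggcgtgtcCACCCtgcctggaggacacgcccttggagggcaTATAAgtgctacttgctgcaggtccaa
Hba-a2: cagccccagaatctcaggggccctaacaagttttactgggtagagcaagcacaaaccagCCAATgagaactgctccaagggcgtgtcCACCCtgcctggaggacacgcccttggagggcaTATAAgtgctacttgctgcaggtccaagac
Hbb-bs: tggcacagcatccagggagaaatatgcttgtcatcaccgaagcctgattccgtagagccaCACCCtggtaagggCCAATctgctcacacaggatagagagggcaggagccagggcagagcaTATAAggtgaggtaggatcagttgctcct
Hbb-bt: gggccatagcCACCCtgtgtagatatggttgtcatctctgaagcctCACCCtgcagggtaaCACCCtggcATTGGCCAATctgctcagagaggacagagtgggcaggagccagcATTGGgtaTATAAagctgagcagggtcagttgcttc
Alas2: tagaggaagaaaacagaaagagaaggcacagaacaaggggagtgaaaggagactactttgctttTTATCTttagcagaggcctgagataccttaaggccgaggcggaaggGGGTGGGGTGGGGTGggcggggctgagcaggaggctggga
Capitals mark matches on either strand to 4 motifs. These are the core of Klf1 sites, CACCC; a longer form of the site of GATA factors, AGATAA; the box bound by NF-Y, CCAAT; and the core of the TATA box, TATAA. Neighbouring matches abut in Hbb-bt and Alas2 but no matches overlap. The Hbb-bt window held 3 CACCC and 3 CCAAT matches, and the Hba-a1, Hba-a2 and Hbb-bs windows 1 of each. All 4 globin windows held 1 TATAA and none held AGATAA. The Alas2 window held 3 CACCC matches and 1 AGATAA match, all on the minus strand, and neither CCAAT nor TATAA. Of 32851 promoter windows of the same length in the RefSeq table, 37.4% held CACCC, 5.65% AGATAA, 24.5% CCAAT and 14.2% TATAA. These matches describe letters only.

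The rule fixes the globin level, so the following values are a description. Median globin share was 1.43% in band cells, against 0.547% in below-band and 4.25% in above-band cells, and the median number of globin UMIs per cell was 277, against 82 and 683. Counts were summed over the cells of each group and scaled to a total of 1000000 UMIs (CPM). Hbb-bt stood at 2823 CPM in band cells, against 919 below and 10885 above the band. Hbb-bs stood at 5420.4 CPM, against 2739 and 29889.8. Hba-a1 stood at 4179.8 CPM, against 1274 and 17157, and Hba-a2 at 1677 CPM, against 626 and 8943. Near the 3′ end of the transcript, where this chemistry reads, Hba-a1 and Hba-a2 were identical at 89.6% of aligned bases and Hbb-bs and Hbb-bt at 86.2%. How reads common to a pair were assigned is not given in the sources used here, so the single values of either pair, and the Hbb-bt part below, carry that uncertainty. Hbq1b, a theta globin gene that the rule did not use, stood at 8.22 CPM, against 1.58 and 23.2 (log2 ratio to below-band cells 2.38, 1.61 to 3.10).

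The mix of globin transcripts was not fixed by the rule, and it differed between the groups. The alpha genes took 41.5% of the globin UMIs of band cells (41.05 to 42.02%), against 34.2% below (34.0 to 34.4%) and 39.0% above the band (38.8 to 39.2%). Hbb-bt took 34.2% of the beta globin UMIs of band cells (33.6 to 34.9%), against 25.1% below (24.9 to 25.4%) and 26.7% above (26.5 to 26.9%). Over finer steps of globin share, the Hbb-bt part was 24.8% under 0.5% and from 0.5 to 0.75%. It was 29.7% from 0.75 to 1%, 34.4% from 1 to 1.5%, 34.1% from 1.5 to 2%, 34.1% from 2 to 4%, 30.8% from 4 to 8% and 21.9% at 8% or more. The alpha part ran from 32.9% under 0.5% through 39.6% at 0.75 to 1% and 42.1% at 1 to 1.5%, to 37.4% at 8% or more. The Hbb-bt part was thus level from 1 to 4%, lower on both sides.

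Barcodes rich in markers of other cell types also held globin UMIs. Barcodes rich in mast cell markers (10 cells, thresholds chosen after their values were seen) had a median globin share of 0.548% and an Hbb-bt part of 22.7%. The 10 barcodes rich in megakaryocyte markers had 0.589% and 24.8%, and both sets lay close to the 0.547% and 25.1% of below-band cells. The 4 barcodes rich in granulocyte markers also had a median share of 0.589%, but their highest share was 5.68% and their Hbb-bt part was 31.3%, farther from below-band cells. None of these barcodes was a band cell. The difference in CPM between band and below-band cells was 46.3% alpha, and Hbb-bt made up 41.5% of its beta part. How much of the globin in band cells came from free RNA was not tested.

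**Figure D1:**
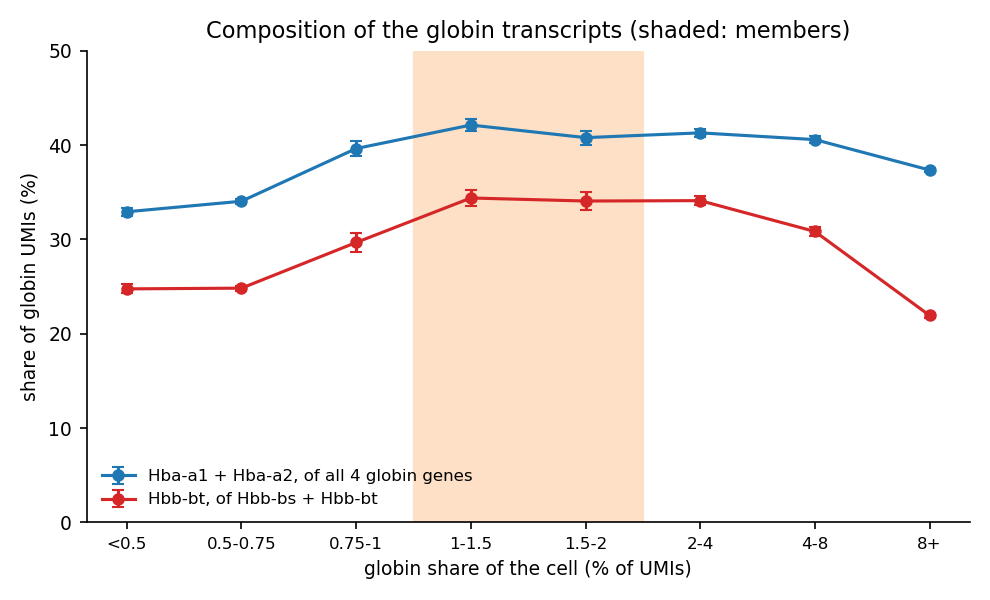
Share of globin UMIs (%, y axis) taken by the alpha genes (blue, of all 4 globin genes) and by Hbb-bt (red, of both beta genes) over 8 steps of the cells' globin share (x axis, % of UMIs) in the Car1-GFP library, with 95% exact binomial intervals. Both lines are higher in the shaded band than under 0.75%, and Hbb-bt ends at 21.9% in the cells at 8% or more.

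The edges of the band cut a continuous range. The 22 cells from 0.9 to 1% had a median of 219 globin UMIs, and the 21 cells from 1.0 to 1.1% had 243; at the upper edge the 7 cells from 1.9 to 2.0% had 335 and the 8 cells from 2.0 to 2.1% had 371.5. Of the band cells, 33 (26.0%) held no more globin UMIs than the 95th percentile of below-band cells, so for them the share and not the number set them apart.

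Band cells were counted more deeply than the others. They had a median of 20750.0 UMIs and 3834 genes, against 14971 UMIs and 3325.5 genes below the band and 15561 UMIs and 3198 genes above it. With every cell thinned to 4000 UMIs, a depth that all kept cells exceeded, the median was 1516 genes, against 1525 and 1461. Ribosomal protein genes took a median 33.0% of UMIs, against 35.9% and 31.03%, and mitochondrial genes 3.54%, against 3.29% and 3.36%. The summed counts hold 2797001 UMIs in the band, against 35995849 below and 4002369 above it. A barcode sequence was found in both libraries 14 times, and 2 of those were band cells. Scrublet, a doublet caller, marked 2 of 127 band cells, against 6 of 2022 and 1 of 251; at 9 of 2400 (0.375%) it marked too few to be taken as working, and no barcode was removed.

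The name of the cells was checked against its markers. Klf1, the erythroid Krüppel-like factor, stood at 421 CPM in band cells, against 323 below and 481 above the band. Car2, a cytosolic carbonic anhydrase of erythroid cells, stood at 4776 CPM, against 2935 and 4978. Gata1 stood at 187 CPM, against 174 and 213, and Epor, the erythropoietin receptor, at 77.9 CPM, against 68.3 and 78.2. All 4 were present in every group, so their presence did not mark the band. The globin level did so by the rule. Many of the genes below, such as Cpox and Rgcc, set the band apart from below-band cells but not from above-band cells.

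Across genes, the band was far from the cells under it and near to the cells over it. Genes with at least 50 UMIs over both groups were called measured, and a 1.5-fold difference in CPM was used to count them. Over below-band cells, 834 of 9870 measured genes were higher (8.45%) and 2072 lower (21.0%), with a median log2 ratio of -0.10. Over above-band cells, 383 of 6693 were higher (5.72%) and 177 lower (2.64%), with a median of 0.12. The last split turned with the scaling: edgeR's TMM factors, which shift these log2 ratios by -0.14, gave 177 higher and 320 lower, and leaving the globin UMIs out of the total gave 250 and 247. The groups differ in size as well, which limits the second comparison to better counted genes.

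To place single cells, a stage index was formed from the cells outside the band alone: of the UMIs of 215 genes that were 2-fold or more higher above the band than below it and 272 that were 2-fold or more lower, the percentage that fell on the higher genes. Its median was 69.1 in band cells, against 29.4 below and 78.8 above the band; at 4000 UMIs per cell it was 68.9, against 29.2 and 78.04. The 10th to 90th percentile of band cells ran from 62.6 to 74.2. Only 34 of 2022 below-band cells and 35 of 251 above-band cells lay in that range. Above the band the index did not rise throughout with globin share. Its median was 76.8 from 2 to 4%, 81.1 from 4 to 8% and 80.7 at 8% or more. Some of the most globin-rich cells had a low index, such as 53.5 at a globin share of 53.3%. An above-band index in or under the band range thus does not by itself place a cell near the band. The index genes were picked by the difference between these other groups, so the gap between those groups is built in. The index was graded across the edges, with medians of 63.0 at 0.9 to 1%, 65.8 at 1.0 to 1.1%, 70.2 at 1.9 to 2.0% and 71.7 at 2.0 to 2.1%.

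Band cells varied in the index by more than counting error, as did the other groups. The standard deviation was 8.54 over band cells, against 10.3 below and 9.70 above the band, where counting alone gives 1.604, against 1.998 and 1.854. Of the 127, 5 had an index under 55, a limit set after the values were seen. In 3 of them the index was 21.4, 23.8 and 29.0, with globin shares of 1.04 to 1.12% and 5573, 8212 and 9904 UMIs, so they stood among below-band cells in both index and depth. The other 2 had indices of 37.8 and 48.5, globin shares of 1.955% and 1.601%, and 78663 and 41223 UMIs, the first of them the deepest band cell. Conversely, 59 below-band cells had an index of 60 or more, and 31 of these held a globin share of at least 0.8%. Whether any of the 5 holds more than 1 cell was not tested.

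**Figure D2:**
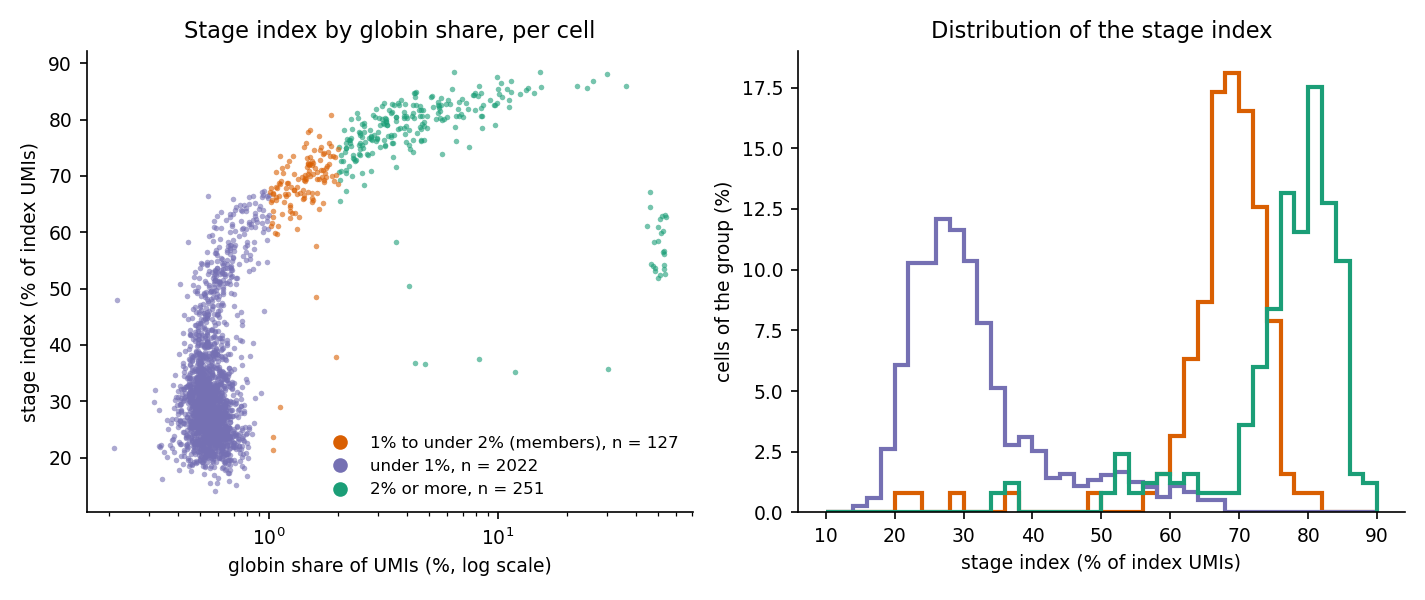
Left, stage index (% of index UMIs, y axis) against globin share (% of UMIs, log x axis) for each of the 2400 kept cells; right, the distribution of the index as the percentage of cells of each group. Band cells (orange) have a median of 69.1, against 29.4 below the band (purple) and 78.8 above it (green), and 5 orange points lie under 55.

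Genes of the index did not all stand at the same point. Taking the log2 distance from below-band to above-band cells as 100%, the median position of the band was 74.7% over the 215 higher genes and 69.1% over the 272 lower genes. The 5th to 95th percentiles ran from 42.9 to 96.9% and from 34.3 to 115%. Above-band over below-band cells, from which the index was made, 9.24% of 9890 measured genes were past 1.5-fold higher and 32.1% lower.

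Heme synthesis genes were higher in band than in below-band cells, as a list and for nearly all steps. Of 9 measured, 8 were past 1.5-fold higher and 0 lower, with a median log2 ratio of 1.21, where 8.45% of all measured genes were higher. Uros, which closes the tetrapyrrole ring, stood at 90.1 CPM, against 26.9 below and 112 above the band (log2 ratio to below-band cells 1.74, 1.54 to 1.94). Cpox, the coproporphyrinogen oxidase, stood at 298 CPM, against 122 and 308, a position of 96.6%. Ppox, the oxidase of the step after it, stood at 66.9 CPM, against 27.7 and 88.9. Further enzymes of the chain, given after their values were seen, were Alad, which makes the pyrrole unit, at 492 CPM, against 280.2 and 595, and Urod at 277 CPM, against 179 and 378. Fech, which inserts the iron, stood at 233 CPM, against 117 and 342.

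Alas2 stood earlier in its range than these enzymes. It stood at 30.0 CPM in band cells, against 10.7 below and 174 above the band, log2 ratios of 1.49 (1.13 to 1.83) and -2.54 (-2.88 to -2.21), at a position of 37.0%. Over the steps of globin share it stood at 10.2, 10.8 and 12.2 CPM up to 1%, at 24.0 and 40.8 CPM within the band, and at 80.0, 164 and 485 CPM above it. The median band cell held no Alas2 UMI, as did the median below-band cell, while the median above-band cell stood at 140.4 CPM. Alas1, the form of the same enzyme found in all tissues, stood at 6.79 CPM, against 9.03 and 3.25, with 0 within the interval of both ratios. Over above-band cells, Alas2 was the only one of 8 measured heme synthesis genes past 1.5-fold, lower in the band. The list median was -0.36 beside 0.12 for all genes, of which 2.64% were lower.

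**Figure D3:**
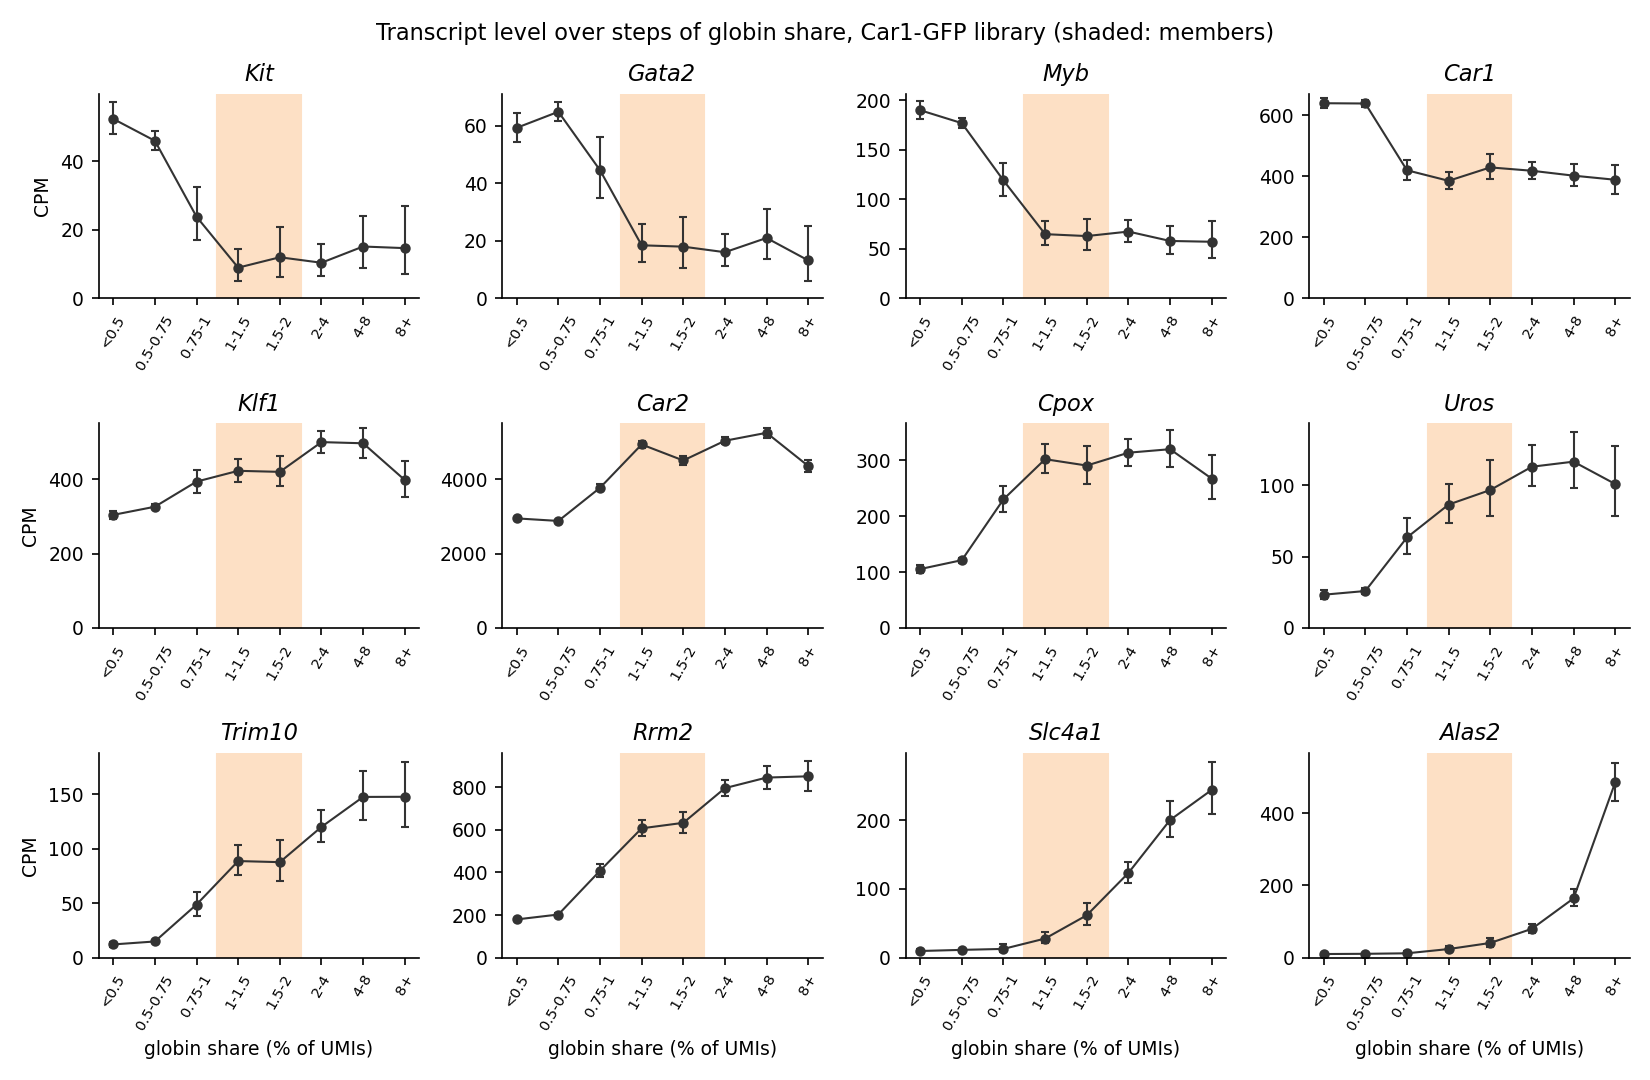
CPM (y axis, from 0) of 12 genes over 8 steps of globin share (x axis, % of UMIs) in the Car1-GFP library, each point a sum over the cells of the step with its 95% Poisson interval and the band shaded. Kit, Gata2 and Myb are at their low level by the band, Cpox and Car2 near their high level, and Slc4a1 and Alas2 far below the level of the last step.

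Genes that move heme and iron differed in the same direction, with a smaller share of them past 1.5-fold. Of 12 measured heme transport and breakdown genes, 7 were higher over below-band cells and 0 lower, with a median of 0.76. For this list and the iron genes, the shares of all measured genes over below-band cells were 8.45% higher and 21.0% lower. Over above-band cells 0 of 11 heme transport and breakdown genes passed in either direction. There 5.72% of all measured genes were higher and 2.64% lower, so that count is near the background. Hebp1, a heme-binding protein, stood at 474 CPM, against 182 and 548. Abcb10, a mitochondrial transporter of erythroid cells, stood at 86.2 CPM, against 33.7 and 118, and Tmem14c, a mitochondrial protein needed for porphyrin transport, at 1823 CPM, against 838 and 2129. Of 16 iron genes, 4 were higher and 0 lower over below-band cells, with a median of 0.31. Slc25a37, the mitochondrial iron importer mitoferrin, stood at 65.4 CPM, against 23.1 below and 164 above the band, with log2 ratios of 1.503 (1.26 to 1.74) and -1.33 (-1.57 to -1.09). Tfrc, the transferrin receptor, stood at 114 CPM, against 71.2 and 162, and Fth1, the ferritin heavy chain, at 6426 CPM, against 4065 and 7351.

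Of the red cell membrane and skeleton genes, 17 of 26 measured were higher over below-band cells and 1 lower, with a median of 0.87. Of all measured genes, 8.45% were higher there and 21.0% lower. The lower one in the list was Mfsd2b, a sphingolipid transporter, at 45.8 CPM, against 70.1. Over above-band cells 7 of the list were lower and 1 was higher, with a median of -0.35. Of all measured genes, 2.64% were lower there and 5.72% higher. The higher one in the list was Cd44, an adhesion receptor, at 43.6 CPM, against 44.3 and 26.7. Mfsd2b and Cd44 were singled out after their values were seen. Epb42, which ties band 3 to the skeleton, stood at 40.0 CPM, against 8.36 below and 74.0 above the band, and Dmtn, an actin-bundling protein of the skeleton, at 28.6 CPM, against 7.89 and 46.2. Epb42 stood at a position of 71.9% and Dmtn at 72.8%.

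Slc4a1 stood earlier in its range than these partners. It stood at 40.0 CPM in band cells, against 11.03 below and 167 above, log2 ratios of 1.86 (1.54 to 2.17) and -2.06 (-2.36 to -1.77), at a position of 47.5%. Within the band it stood at 27.9 CPM from 1 to 1.5% and at 61.8 CPM from 1.5 to 2%, after 9.8, 11.4 and 12.8 CPM over the steps up to 1%. Tmod1, which caps actin filaments, stood at 4.65 CPM, against 2.44 and 20.99, and had not left the level below the band beyond counting error (log2 ratio 0.93, -0.04 to 1.77). Among genes of late maturation, 5 of 15 were higher and 2 lower over below-band cells, where 8.45% of all genes were higher and 21.0% lower. Trim10, a tripartite-motif protein of erythroid cells, had the highest ratio of any gene under the naming rule, at 88.3 CPM, against 15.7 and 133 (2.49, 2.27 to 2.71). Bpgm, which makes the hemoglobin ligand 2,3-bisphosphoglycerate, stood at 37.5 CPM, against 21.9 and 88.7; by step it was at 48.9 and 50.3 CPM from 2 to 8% and at 279 CPM at 8% or more.

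Progenitor factors and receptors were lower in band than in below-band cells and level with above-band cells. Of 13 measured, 9 were past 1.5-fold lower and 0 higher over below-band cells, with a median of -1.20. Of all measured genes, 21.0% were lower there. Over above-band cells 0 of 8 passed, with a median of 0.07. In that comparison 5.72% of all measured genes were higher and 2.64% lower, so the count is near the background. Kit, the stem cell factor receptor, stood at 10.0 CPM, against 46.6 below and 12.5 above the band (log2 ratio to below-band cells -2.22, -2.81 to -1.68). Gata2 stood at 18.2 CPM, against 62.4 and 17.0 (-1.77, -2.20 to -1.37). Myb, a factor of dividing progenitors, stood at 64.0 CPM, against 178 and 62.7, and Myc, a growth factor-responsive regulator, at 40.0 CPM, against 116 and 29.0. By step, Kit stood at 52.3, 45.9 and 23.8 CPM up to 1%, at 8.92 and 11.95 CPM within the band, and at 10.4, 15.1 and 14.6 CPM above it. Of the 4, Myc alone had a ratio to above-band cells whose interval left out 0 (0.47, 0.08 to 0.85).

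Of 17 measured erythroid transcription factors, 2 were higher and 1 lower over below-band cells, and the higher share is near the 8.45% of all genes. E2f2, a cell cycle factor with a role in red cell precursors, stood at 32.2 CPM, against 9.14 and 56.2, and Rb1, the retinoblastoma protein, at 35.4 CPM, against 17.4 and 51.0. The lower one was Cited2, a transcriptional coregulator, at 5.01 CPM, against 9.33 and 3.00. Klf1 had a log2 ratio of 0.38 (0.30 to 0.47) and Gata1 of 0.10 (-0.03 to 0.23). In erythropoietin signalling 1 of 6 was higher, Bcl2l1, which blocks apoptosis, at 6.79 CPM, against 3.86 and 9.74.

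Car1, the gene behind the reporter, and Car2 on the same chromosome differed in opposite directions. Car1 (mm10 chromosome 3, 14766216 to 14808368, minus strand) stood at 401 CPM in band cells, against 629 below and 409 above the band, log2 ratios of -0.65 (-0.74 to -0.56) and -0.03 (-0.14 to 0.08). Car2 (chromosome 3, 14886273 to 14900770, plus strand) had log2 ratios of 0.70 (0.68 to 0.73) and -0.06 (-0.09 to -0.03). By step, Car1 stood at 639.9 and 639 CPM up to 0.75% and at 420.0 CPM from 0.75 to 1%, so it was already lower in the step before the band. Of the other carbonic anhydrase genes, 3 were measured over below-band cells, and with Car1 and Car2 the list had 1 higher and 3 lower. Among all measured genes 8.45% were higher and 21.0% lower. All cells were sorted on Car1-GFP, which bears on the Car1 level in every group.

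Cell cycle genes were higher as well. Of 27 S phase genes 20 were higher over below-band cells and 0 lower, with a median of 0.77, and their summed level was 5197 CPM in band cells, against 2882 below and 5887 above. Of 30 G2 and M phase genes 18 were higher and 0 lower, with a median of 0.65, and the sum was 5506 CPM, against 3708 and 6486. Rrm2, a subunit of the enzyme that makes deoxyribonucleotides, stood at 616 CPM, against 206 and 819.5, and Ccne2, cyclin E2, at 78.3 CPM, against 24.3 and 99.9. Over above-band cells 0 of 27 S phase genes passed 1.5-fold, and 5 of 30 G2 and M phase genes were lower. Of all measured genes, 5.72% were higher and 2.64% lower in that comparison. The D cyclins differed in opposite directions: Ccnd3 stood at 572 CPM, against 174 and 758, and Ccnd2 at 51.8 CPM, against 147 and 39.7. Among cell cycle brakes, 2 of 10 were higher and 3 lower over below-band cells, where 8.45% of all genes were higher and 21.0% lower. Cdkn2c, an inhibitor of the cyclin D kinases, stood at 87.6 CPM, against 39.0 and 114, and Btg2, an antiproliferative protein, at 36.1 CPM, against 10.4 and 77.7. Phases of single cells were not called.

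Growth and housekeeping lists were read against the 5.72% of all measured genes that were higher and the 2.64% that were lower over above-band cells. Over below-band cells the shares of all measured genes were 8.45% higher and 21.0% lower. Of 26 ribosome biogenesis genes measured over above-band cells, 6 were higher and 0 lower, with a median of 0.41; the median of all genes was 0.12, and TMM factors lower each of these ratios by 0.14. Over below-band cells 8 of 29 were lower and 0 higher, with a median of -0.39, where 21.0% of all genes were lower, so that count is near the background. Nolc1, a nucleolar assembly protein, stood at 147 CPM, against 167 below and 92.4 above the band. Chaperones had 1 of 16 higher and 0 lower over above-band cells, a share near that of all genes, with a median of 0.33: Hspd1, the mitochondrial chaperonin, stood at 506 CPM, against 579 and 313 (0.69, 0.58 to 0.80). Among genes of nucleotide synthesis and its one-carbon supply, 3 of 24 were higher over above-band cells and 0 lower, while over below-band cells 4 of 25 were higher and 3 lower. In the citric acid cycle 0 of 18 passed over below-band cells and 1 of 18 was higher over above-band cells, again near the share of all genes: Idh3a, at 184 CPM, against 159.9 and 115. Glycolysis had 7 of 17 lower and 0 higher over below-band cells, and 0 of 13 higher and 1 lower over above-band cells, with Gpi1, glucose-6-phosphate isomerase, at 78.3 CPM, against 146 and 70.7. Of 18 antioxidant genes, 4 were higher and 1 lower over below-band cells, with Prdx2, a peroxiredoxin of red cells, at 2435 CPM, against 1326 and 3079.

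**Figure D4:**
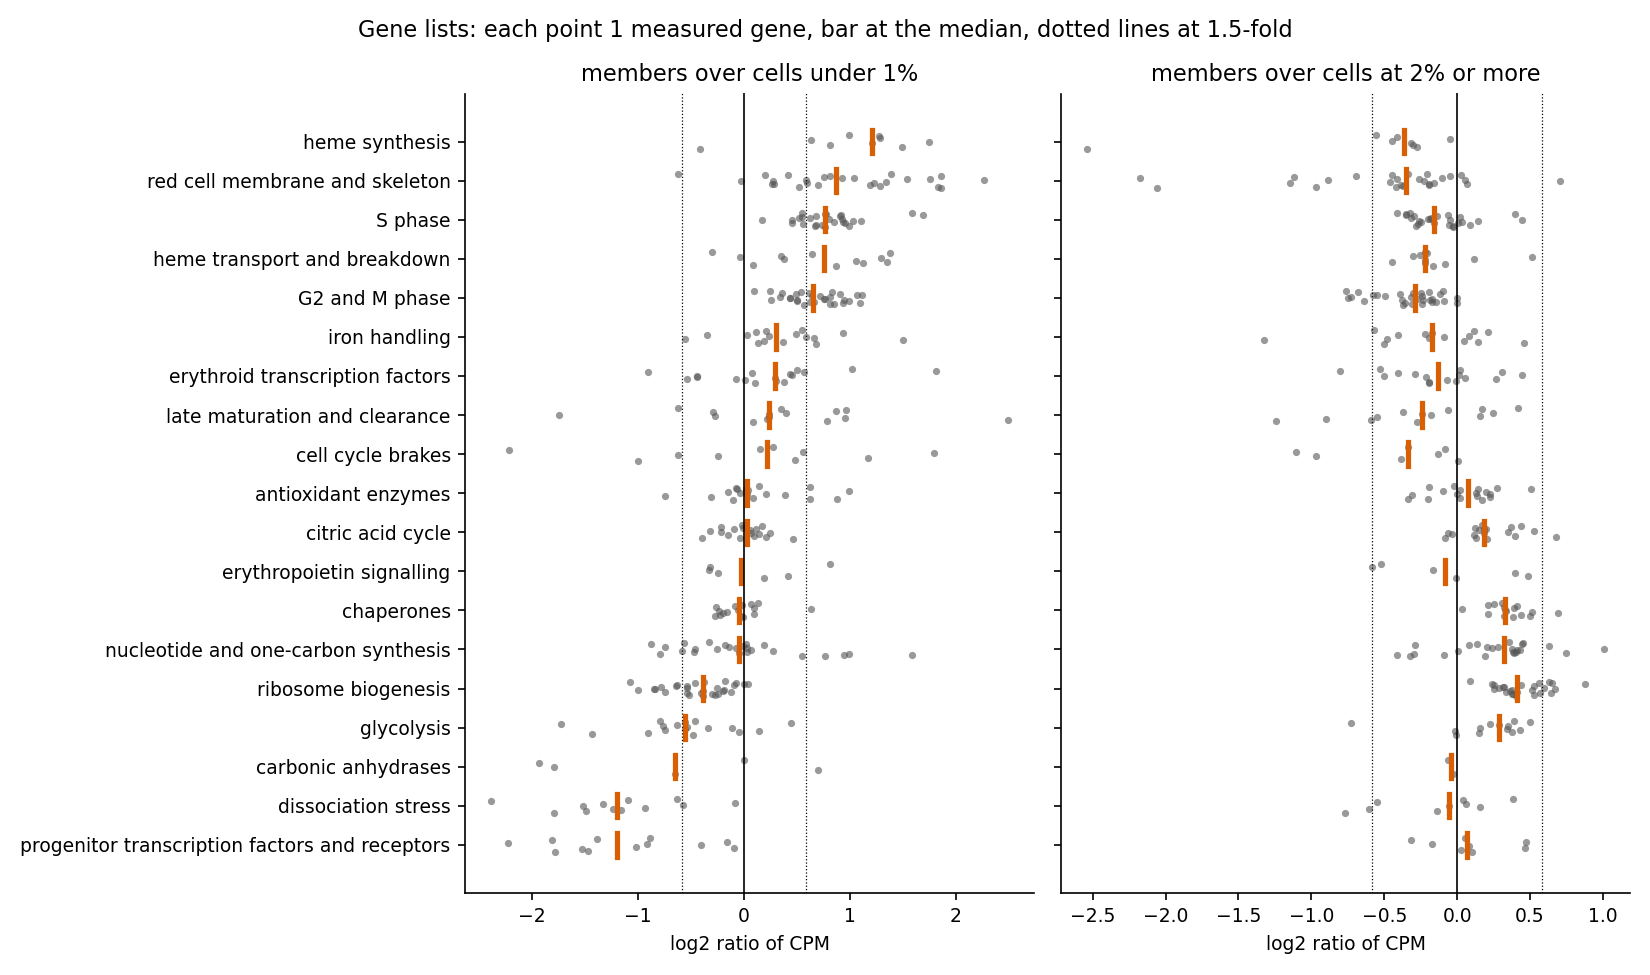
Log2 ratio of CPM (x axis) of each measured gene (point) of 19 gene lists, with the list median (orange bar) and 1.5-fold limits (dotted), band cells over below-band cells on the left and over above-band cells on the right. Heme synthesis has the highest median on the left (1.21) and progenitor factors the lowest (-1.20), while on the right ribosome biogenesis stands at 0.41.

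By the naming rule, the genes with the highest ratios to below-band cells after Trim10 were St3gal6, a sialyltransferase, at 131 CPM, against 33.9 and 185, and Mgst3, a microsomal glutathione transferase, at 438 CPM, against 121 and 814. Rgcc, a cell cycle regulator, stood at 246 CPM, against 71.0 and 256, and was thus level with above-band cells. Ctse, the protease cathepsin E, stood at 463 CPM, against 150.3 and 699, and Hemgn, an erythroid nuclear protein, at 291 CPM, against 100.8 and 416. Acp5, an acid phosphatase, stood at 99.4 CPM, against 32.8 and 265. The lowest were Cmtm7, Plac8, Psmb8, Ifngr1, Tmsb10, Spint2, Ptprcap, Vim and Nkg7, beside Myc, Ccnd2 and Myb, with log2 ratios of -1.84 to -1.45. Psmb8, an immunoproteasome subunit, stood at 48.3 CPM, against 167 and 52.2, and Ifngr1, an interferon gamma receptor chain, at 59.7 CPM, against 195 and 65.0. None of these 12 was past 1.5-fold over above-band cells, where 5.72% of all measured genes were higher and 2.64% lower.

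Against above-band cells the lowest ratios included those of Alas2, Slc4a1, S100a8, Acp5, Slc25a37, Bpgm, Cd59a, Btg2, Neil3 and Mgst3, from -2.54 to -0.90. Cd59a, a complement inhibitor of the red cell surface, stood at 35.8 CPM, against 30.98 and 79.2, so it was level with below-band cells (log2 ratio 0.21, -0.10 to 0.50). Neil3, a DNA glycosylase, stood at 37.5 CPM, against 15.6 and 70.5. The highest were Apex1, Sms, Pno1, Uchl3, Tomm70a, Nob1, Hspd1, Dnajc2, Idh3a, Nolc1, Pdcd4 and Wdr43, from 0.80 to 0.66. Apex1, a DNA repair endonuclease, stood at 119 CPM, against 161 and 68.5, and Pdcd4, a translation inhibitor, at 82.9 CPM, against 84.3 and 52.2.

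Few genes were highest or lowest in the band itself. Of 4334 genes whose mean over the groups reached 20 CPM, 138 (3.18%) were 1.2-fold or more above both other groups and 61 (1.41%) below both. No interval was required for these counts. TMM factors shift log2 ratios to above-band cells by -0.14, and how the split of peaks and dips follows the scaling was not tested. The peaks with the largest margin were Fuca2, a fucosidase, at 54.0 CPM, against 26.6 and 33.5, and Sh2d4a, an SH2 domain protein, at 51.8 CPM, against 22.8 and 33.7, followed by Atl3, Ifi30, Cnn3, Gfm1, Ankrd13c and Dna2. By step, Fuca2 stood at 23.3, 27.0 and 39.6 CPM up to 1%, at 56.9 and 48.8 CPM in the band, and at 38.6, 36.0 and 13.2 CPM above it. Atl3 was no longer above both groups with cells thinned to 4000 UMIs (log2 ratio -0.22 to below-band cells). The dips were S100a9, S100a8, Junb, Rhoh, Mdm4, Neat1, Usp47 and Snx14.

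The dip of S100a8, a neutrophil protein, went with single barcodes outside the band. It stood at 29.3 CPM in band cells, against 70.3 below and 88.4 above; 1 below-band cell held 1003 of its UMIs and 1 above-band cell 243. With barcodes holding 0.2% or more of markers of other cell types left out, it stood at 29.4 CPM, against 31.3 and 27.9. That limit takes 1 of 127 band cells, against 204 of 2022 and 2 of 251. S100a8, S100a9 and Pf4 are themselves among those markers, so the limit removes the barcodes highest in them. Their nearness between groups after it is thus partly built in and is given as a description. Summed neutrophil and granulocyte markers stood at 91.5 CPM in band cells, against 249.8 and 207; 10 of 11 measured were lower over below-band cells, where 21.0% of all genes were lower. The median cell stood at 84.1 CPM, against 102.6 and 85.2, and 1 below-band cell held 775 UMIs of S100a9, another neutrophil protein. Without the barcodes of other types, S100a9 stood at 19.0 CPM, against 20.8 and 24.6. In the band, Cd177, Mmp8, Ly6g and Cebpe were at 0, which allows up to 1.07 CPM at its depth (3 counts over the group). Megakaryocyte markers stood at 65.4 CPM, against 122 and 83.5, with 6 of 8 lower and 2 higher and Gp6 and Itgb3 at 0 in the band. Pf4, a platelet chemokine, stood at 23.6 CPM, against 55.3 and 24.2; 1 below-band cell held 275 of its UMIs, and without the barcodes of other types it stood at 23.3 CPM, against 26.4 and 24.4. Mast cell markers stood at 275 CPM, against 515 and 262, mostly Srgn, with Tpsb2, Tpsab1, Mcpt4, Mitf and Hpgds at 0. Monocyte and macrophage markers stood at 37.2 CPM, against 53.5 and 34.7, with 22 of the 104 UMIs in 1 band cell and Csf1r, Ccr2 and Adgre1 at 0. Of the 6 of these markers measured over below-band cells, 2 were higher, C1qc among them, and 3 were lower. Of all measured genes, 8.45% were higher there and 21.0% lower. The smaller sums were 30.7 CPM for T, NK and innate lymphoid markers, against 83.5 and 38.0, and 44.0 CPM for dendritic markers, against 99.7 and 42.2. Basophil markers stood at 2.15 CPM, against 5.36 and 3.00, and B and plasma cell markers at 2.86 CPM, against 6.45 and 3.75, with Cd3e, Siglech, Cd200r3 and Cd79a at 0 in the band. Stem and multipotent markers stood at 47.2 CPM, against 77.3 and 43.5, with Procr, Hlf and Flt3 at 0, and erythroid progenitor markers at 2577 CPM, against 2289 and 2859.8. The part of these cells in the lower genes was not tested beyond that exclusion.

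Immediate early genes, which respond to cell handling, also differed. Of 12 measured, 10 were lower over below-band cells and 0 higher, with a median of -1.20, where 21.0% of all genes were lower. Fos stood at 8.94 CPM, against 30.9 and 15.2, and Egr1 at 13.9 CPM, against 39.8 and 14.5. Their part in other differences was not tested.

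The same rule was applied to the marrow library, whose cells did not enter the ratios above. It gave 19 barcodes, of which 15 held at least 3 UMIs of erythroid markers, with 44245 UMIs in all. The cells of that kind numbered 233 below and 70 above the band. All 3 marrow groups held many neutrophil transcripts. S100a8 stood at 9832 CPM in the band, against 10112 and 9133, and S100a9 at 6464 CPM, against 6301 and 5777. In Car1-GFP band cells S100a8 stood at 29.3 CPM. Where these transcripts came from was not tested. Of the 12 genes with the highest Car1-GFP ratios to below-band cells, 11 had at least 10 UMIs there, and all 11 lay above 0, each with an interval above 0. Of the 12 lowest, 11 lay below 0, 6 of them with an interval below 0. Against above-band cells, 9 of 11 of the lowest lay below 0, 5 with their interval, and 3 of 4 of the highest lay above it, 1 with its interval. The share of all marrow genes above or below 0 is not given, so these counts have no background to be read against. Rrm2 stood at 723 CPM in marrow band cells, against 213 below and 934 above. Slc4a1 stood at 113 CPM from 5 UMIs, against 3.87 and 686, and Alas2 had 0 UMIs in the band, which allows up to 67.8 CPM (3 counts over the group), against 3.87 and 157 CPM. Klf1 had a log2 ratio to below-band cells of -0.01 (-1.04 to 0.86), a wide interval that also holds the Car1-GFP value of 0.38. Klf1 is itself in the erythroid progenitor marker list, and the marrow cells were kept by erythroid marker UMIs. How far that choice set its level was not tested. The alpha share of globin UMIs in marrow band cells was 65.0% (61.2 to 68.7%), against 73.7% and 60.1%, so the lower alpha share below the band in the Car1-GFP library was not seen there. Hbb-bt took 44.4% of the beta globin UMIs of marrow band cells (37.8 to 51.2%), against 40.6% below (34.5 to 46.9%) and 33.0% above (31.6 to 34.4%). The band and below-band intervals overlap, so a higher Hbb-bt part than below the band was not shown in marrow. Globin made up a median 0.0262% of the marrow below-band cells with erythroid markers, which is far under the 0.547% of the Car1-GFP library. The same limits of globin share thus stand over unlike base levels in the 2 libraries.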

How the data were processed

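The 2 libraries were made with 10x Genomics v2 chemistry, 1 per gate. Per the submitters' processing notes, Cell Ranger 2.1, Seurat 2 and mm10 were used; no other step is given in the sources used here. The authors deposited a sparse matrix of UMI counts for each library (27998 genes), and all values were checked to be whole. No barcode held under 4697 UMIs in the Car1-GFP library, and 122 of its 2522 barcodes (4.84%) at 10% or more mitochondrial UMIs were left out; the marrow library (6458 barcodes) lost 19. Genes were named as in the files, with positions from GENCODE M21 (mm10) and promoters from RefSeq.

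UMIs were summed per globin group and divided by the total (CPM). Ratios carry an exact interval that treats both counts as binomial, CPM an exact Poisson interval and shares an exact binomial one, all at 95% and for counting error only; UMIs are not independent between cells of 1 pool. Genes needed 50 UMIs over both groups. Thinning used 4000 UMIs and seed 1. No test was made, since cells of 1 library are not replicates. The members, the 21 gene lists and the 11 marker lists were chosen with earlier results of these data known, and 4 list symbols had no row. Named genes were the 12 highest and 12 lowest ratios at a mean of 50 CPM or more (without mitochondrial, ribosomal protein, globin and immunoglobulin genes), up to 8 peaks and dips, up to 4 genes per list, and Hbb-bt, Klf1, Car2, Car1, Gata1, Gata2, Kit and Epor. Some genes that the rule takes are not reported here. The ratio step was tested on simulated data. Tools were Python 3.11.15, numpy 2.4.6, scipy 1.17.1, pandas 2.3.3, scanpy 1.11.5 with Scrublet, matplotlib 3.10.9, R 4.3.3 and edgeR 4.0.16 (TMM factors only). Alternatives were other scalings, depth, mitochondrial limits, doublet removal, narrower bands and nearer neighbours.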

Additional observations from a re-analysis of the deposited data

How the results depend on the processing

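The counts of genes followed the minimum of UMIs, the fold and the scaling. Over below-band cells, 2906 genes passed 1.5-fold. With no minimum it was 7125 (1676 higher, 5449 lower), with at least 200 UMIs 1846 passed (1254 lower) and at 2-fold 1378 (291 higher, 1087 lower). Over above-band cells, 560 passed. With no minimum it was 3859 (2107 higher, 1752 lower), with 200 UMIs 125 (70 higher, 55 lower), at 2-fold 78 (34 higher, 44 lower), and against cells from 2 to 4% only 368 (244 higher). Leaving globin UMIs out of the total gave 250 higher, TMM factors 177 higher and 320 lower, and the band from 1.5 to 2% gave 267 lower. The band holds 76 cells from 1 to 1.5% and 51 from 1.5 to 2%. Leaving out the 5 members under index 55, an alternative chosen after seeing the data, left 122 members, with 887 genes higher and 2181 lower over below-band cells and 364 and 172 over above-band cells.

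Over the alternatives that give a new ratio, for 158 named genes, 1806 of 2035 log2 ratios to below-band cells and 1846 of 2031 to above-band cells stayed within their main interval. The 1.5-fold call was lost by 49 and 123 of them, 9 and 11 changed sign, and the cause was not tested. To below-band cells these were Atl3 (-0.22) and Ldhb (0.29) after thinning, C1qc (-0.48) in the band from 1 to 1.5%, Ly6c2 (0.15), Lyz2 (0.31) and Ms4a6c (0.63) without barcodes of other types, and Ldhb (0.086), Lyz2 (0.32) and Ms4a6c (0.57) in the middle range of member depth. To above-band cells they were Atl3 (-0.0171), Car9 (0.98), Cpa3 (0.40) and Utp20 (-0.60) after thinning, Car9 (0.44), Ccng2 (0.44) and Rrp1b (-0.32) in that depth range, Ccng2 (0.41) and Il3ra (0.41) in the band from 1.5 to 2%, and S100a8 without barcodes of other types (0.0765) and against 2 to 4% (0.21). Ly6c2, Lyz2, Ms4a6c and S100a8 are among the markers by which barcodes of other types were left out. No paired analysis was possible because each gate has 1 library. Depth limits genes such as Kit, Alas2 and Slc4a1, whose median band cell holds no UMI.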
